A study of Mus musculus with 20 samples.

Results

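The genes described here are the ephrins, Eph receptors, semaphorins, plexins, neuropilins, Slits and Robos of the mouse, the ligands and receptors that steer axons and migrating neurons. They were chosen by gene symbol, as every gene of the table whose name places it in one of these families, and 60 genes of 24411 met that rule. They comprise 5 ephrin-A and 3 ephrin-B ligands, 9 EphA and 5 EphB receptors, 7 secreted class 3 semaphorins, 13 membrane-bound semaphorins of classes 4 to 7, 9 plexins, 2 neuropilins, 3 Slits and 4 Robos. RNA was sequenced from cultured cerebellar granule neurons, the small excitatory neurons of the cerebellar granule layer. In 5 libraries the cells carried an shRNA against mouse Kdm6b together with the active enzymatic domain of human KDM6B (active rescue), and in 5 they carried the shRNA with a catalytically dead form of that domain (dead rescue). Another 5 carried the shRNA alone (shKdm6b), and 5 were controls. Infection took place on day 1 in vitro, the antimitotic drug AraC followed on day 2, and RNA was collected on day 7. The labels give neither the virus used in controls nor the strain and age of the animals. Nothing in the labels ties the 5 libraries of a group to separate cultures or animals, and the p-values therefore cover only the spread among these libraries, which may be technical.

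Kdm6b encodes an enzyme that removes repressive methyl groups from lysine 27 of histone H3, and these marks gather at CpG-rich promoters in many cell types. Ephrins are membrane-held ligands that signal to Eph receptors on neighbouring cells and also signal back into the cell that carries them. Class 3 semaphorins are secreted and act mostly through a neuropilin that binds the ligand and a plexin that signals, while most semaphorins of classes 4 to 7 are anchored in the membrane and bind plexins directly. Slits are large secreted proteins that repel cells bearing Robo receptors. In the developing mouse cerebellum, granule cells migrate inward from the outer surface, and plexins, class 6 semaphorins and ephrin-B signalling are among the systems known to act on that migration.

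The study asked whether the enzymatic activity of Kdm6b restores gene expression after its knockdown. Kdm6b itself had 290, 312, 266, 73.2 and 119 CPM (read counts scaled to library size with TMM factors) in active rescue libraries 1 to 5. It had 272, 250, 192, 54.9 and 109 CPM in the dead rescue. With the shRNA alone it had 99.4, 112, 89.3, 37.9 and 76.4 CPM, against 141, 171, 139, 81.2 and 187 CPM in controls. Each shKdm6b library was thus below the control of its number, while the groups overlapped through control library 4. The groups carry the same replicate numbers, and libraries of a number resembled each other, so a second fit held the number as a block (the paired fit). Kdm6b changed by -0.79 ± 0.43 on the log2 scale in the fit without pairing (SE, adjusted p = 1, edgeR quasi-likelihood test) and by -0.88 ± 0.21 in the paired fit (adjusted p = 0.0231, edgeR). That call was lost without control 4 or 5 or without shKdm6b 1, 2, 3 or 5, with adjusted p up to 0.0934 in edgeR. Whether reads of the introduced human domain were counted as mouse Kdm6b in the rescues was not tested.

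Library totals ran from 14200732 to 21179297 estimated counts. All 12 granule neuron markers were detected in every library, with a summed level of 1790 to 6640 CPM. Markers of other cell types were present as well: 10 meningeal and fibroblast markers summed to 5030 to 32300 CPM and 12 markers of astrocytes and Bergmann glia to 2420 to 17100 CPM. Microglial markers summed to 239 to 1630 CPM, oligodendrocyte markers to 100 to 1020 CPM, endothelial markers to 62 to 192 CPM and GABAergic and Purkinje neuron markers to 133 to 398 CPM. Of defining markers, Pcp2 was listed at 0 in all 20 libraries, Cldn5 in 8 and Mobp in 2. In the endothelial sum Cdh5 alone had 40.1 to 143 CPM, while each other marker had a median of 7.5 CPM or less. Libraries numbered 4 stood apart, with granule neuron markers at 1790 to 2860 CPM against 4010 to 6640 CPM elsewhere, and astrocyte markers at 13200 to 17100 CPM against 2420 to 8080 CPM. A lower value in such bulk samples can be fewer cells of a type or less RNA per cell, which cannot be told apart.

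Among the genes on which the results below turn, Epha5, Sema5b and Slit3 have a promoter entry in RefSeq (GRCm38.p6, 250 bases before the start to 50 after it), and these are shown because the enzyme studied acts on a mark of CpG-rich promoters. Capitals mark the CpG dinucleotide, the letters CG, which read the same on both strands. The Epha5 window lies at chr5:84417333-84417632 on the minus strand, that of Sema5b at chr16:35541112-35541411 on the plus strand, and that of Slit3 at chr11:35121206-35121505 on the plus strand.
Epha5: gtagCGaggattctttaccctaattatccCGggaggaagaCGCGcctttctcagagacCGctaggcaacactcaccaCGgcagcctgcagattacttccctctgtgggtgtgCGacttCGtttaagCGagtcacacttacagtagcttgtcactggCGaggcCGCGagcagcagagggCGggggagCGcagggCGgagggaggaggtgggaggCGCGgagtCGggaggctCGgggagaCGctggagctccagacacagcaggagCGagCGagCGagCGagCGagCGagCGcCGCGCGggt
Sema5b: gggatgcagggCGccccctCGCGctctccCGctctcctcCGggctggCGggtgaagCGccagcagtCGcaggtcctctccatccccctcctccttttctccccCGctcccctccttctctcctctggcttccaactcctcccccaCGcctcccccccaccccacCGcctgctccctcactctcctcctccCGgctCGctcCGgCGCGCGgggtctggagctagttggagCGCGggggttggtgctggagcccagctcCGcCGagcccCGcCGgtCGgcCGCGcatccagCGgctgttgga
Slit3: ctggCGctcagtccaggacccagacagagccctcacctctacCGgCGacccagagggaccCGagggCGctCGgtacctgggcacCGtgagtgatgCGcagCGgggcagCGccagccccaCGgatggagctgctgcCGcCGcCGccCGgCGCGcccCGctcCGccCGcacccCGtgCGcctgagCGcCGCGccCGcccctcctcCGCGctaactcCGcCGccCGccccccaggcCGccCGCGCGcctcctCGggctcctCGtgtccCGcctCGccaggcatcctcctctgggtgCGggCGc
Epha5 holds 30 CpGs, a number reached by 11.7% of all 32851 windows, and 64.3% of its bases are G or C. Sema5b holds 27, reached by 15.5% of windows, at 73.0% G or C. Slit3 holds 41, reached by 3.46% of windows, at 78.3% G or C. Promoters of guidance genes were CpG-rich as a class: 53 of the 60 genes had an entry used here, with 69 windows between them, and these held a median of 18 CpGs (range 2 to 56) against a median of 7 over all windows. Whether CpG content differed between the genes that changed and the rest of the family was not tested.

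Guidance genes spanned a wide range of levels in control cultures. Per kilobase of exon, so that genes can be compared, plexin receptors stood at the top. Plxnb2, a receptor for class 4 semaphorins that granule cell precursors need for normal migration in mice, had 72 ± 8.46 CPM per kb (SD, n = 5 controls, as for the levels that follow). Plxna1, a class 3 semaphorin receptor that works with neuropilins, had 43.5 ± 16.5 CPM per kb. Next came the transmembrane ligands ephrin-B2 (Efnb2) at 18.8 ± 6.46 and ephrin-B1 (Efnb1) at 17.3 ± 7.19 CPM per kb. Sema4c, a ligand of plexin-B2, had 16.0 ± 2.35 CPM per kb, and Nrp1, the neuropilin that binds Sema3a, had 14.3 ± 4.83 CPM per kb. From Efnb2 down to Nrp1, neighbours in this order differed by less than their SD, while Plxnb2 lay above Plxna1 by more than either SD. The genes called after knockdown in the paired fit sat lower: Slit3 at 10.7 ± 5.26, Efnb3 at 5.45 ± 1.32, Sema5b at 2.15 ± 0.287, Plxna4 at 1.60 ± 0.802 and Epha5 at 1.28 ± 0.54 CPM per kb. At the bottom were Robo3, Slit1, Robo4 and Epha6, at 0.0868, 0.0573, 0.0565 and 0.0307 CPM per kb. Epha6, with 77 counts over all 20 libraries, was the member that failed the expression filter, which left 59 of the 60 among 15284 genes tested.

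**Figure D1:**
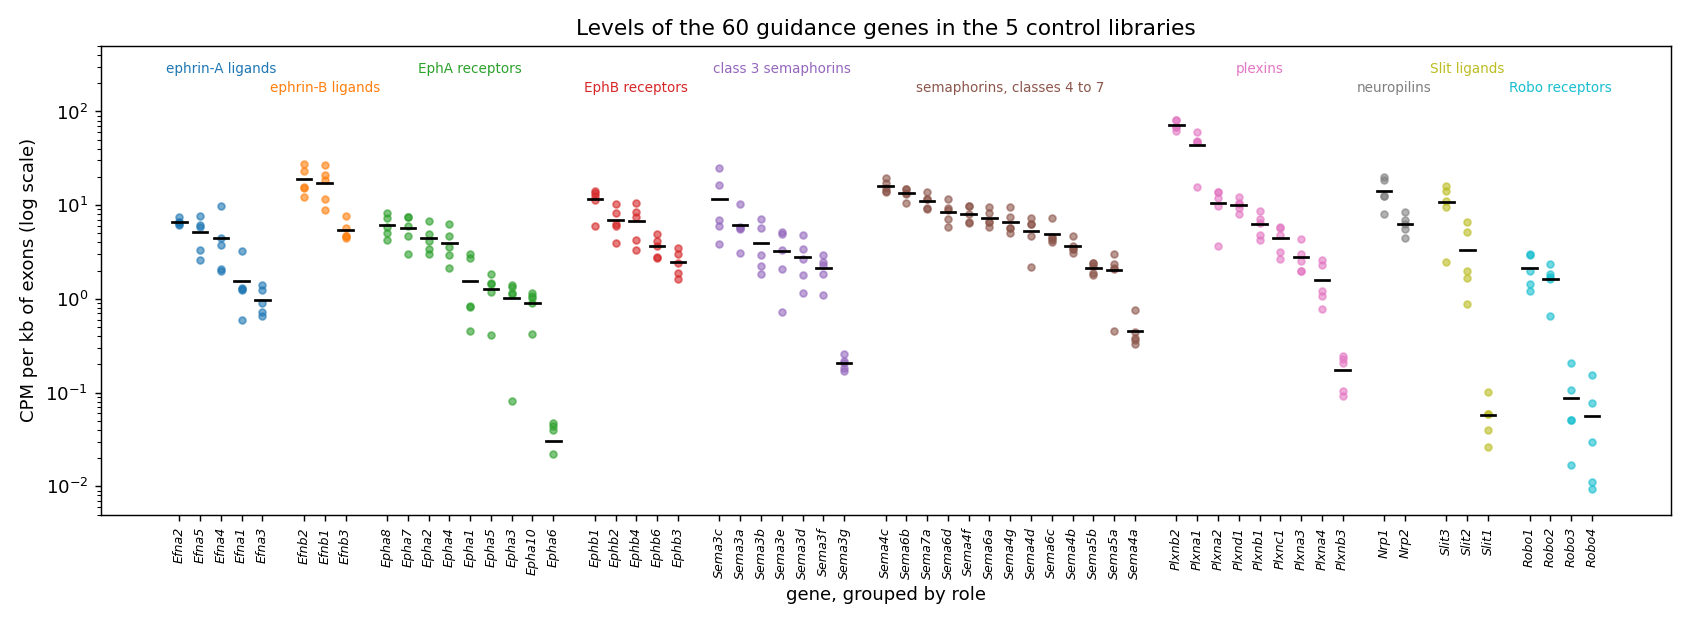
Levels of the 60 guidance genes in the 5 control libraries, in CPM per kilobase of exon on a log axis, grouped by role; points are libraries, bars are means, and values of 0 are not drawn. Plxnb2 and Plxna1 lie highest, at means of 72 and 43.5, and Epha6 lowest, at 0.0307.

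Few guidance genes were called after knockdown of Kdm6b, and in edgeR none without pairing. In shKdm6b against control the paired fit called 5 of 59 members (8.47%), against 4.14% of all tested genes (edgeR quasi-likelihood test, Benjamini-Hochberg adjusted p under 0.05 over all genes). The ephrin-B3 gene Efnb3 and the semaphorin gene Sema5b were higher, 2 members where 1.72% of all genes were called higher. The receptor genes Epha5 and Plxna4 and the ligand gene Slit3 were lower, 3 members where 2.41% of all genes were called lower. The other 54 did not pass. The median log2 fold change was -0.01 over members and 0.01 over all genes. Without pairing, 0 of 59 members were called in this comparison, where 0.00654% of all genes were. In that fit 5 members (8.47%, against 3.12% of all genes) had an unadjusted p under 0.05 in edgeR. In the paired fit 16 members (27.1%) had an unadjusted p under 0.05, against 14.9% of all genes. DESeq2 called 1 member without pairing, Efnb3, and 9 with it. The share of all genes called by DESeq2 is not given here or below, so its counts have no background to be read against. Markers of cell types also differed in the paired comparison. Of 12 granule neuron markers Barhl1 (log2 0.98 ± 0.13) and Pax6 (0.41 ± 0.11) were higher, and Etv1 (-1.02 ± 0.18), Cbln3 (-0.77 ± 0.13), Grin2c (-1.47 ± 0.28) and Slc17a7 (-0.95 ± 0.26) were lower. Of 9 tested GABAergic and Purkinje neuron markers Pax2 was higher and Gad1 and Slc32a1 were lower, and Tmem119 of 11 microglial and Cspg4 of 11 oligodendrocyte lineage markers were lower. None of the astrocyte, meningeal and endothelial markers was called (edgeR). The median log2 fold change was -0.13 over granule neuron, -0.38 over microglial, -0.25 over meningeal, -0.20 over oligodendrocyte lineage and 0.09 over astrocyte markers. Their part in the guidance gene calls was not tested.

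Efnb3 encodes ephrin-B3, a transmembrane ligand of EphB receptors and EphA4, known in mice as the midline barrier for corticospinal axons. The gene lies on chromosome 11 at 69554092 to 69560205 (GRCm38, the assembly of mm10, minus strand). In active rescue libraries 1 to 5 Efnb3 had 35.2, 37.2, 25.4, 51.5 and 24.4 CPM. In dead rescue libraries it had 31.9, 38.1, 31.5, 46.3 and 22.6 CPM. In shKdm6b libraries it had 51.2, 42.9, 29.6, 32.8 and 29.1 CPM, against 18, 14.9, 15.1, 24.4 and 14.3 CPM in controls. Every library with the shRNA lay above the control of its number. The shKdm6b values did not overlap the controls, active rescue 5 lay just above control 4 (both 24.4 CPM when rounded), and dead rescue 5 fell below control 4. The increase was 2.16-fold in shKdm6b (log2 1.11 ± 0.15, SE; adjusted p = 0.000462 paired and 0.115 without pairing, edgeR). It was 1.97-fold in the active rescue (log2 0.98 ± 0.15, adjusted p = 0.00297 paired and 0.389 without, edgeR) and 1.95-fold in the dead rescue (log2 0.97 ± 0.15, adjusted p = 0.00404 paired and 0.504 without, edgeR). These comparisons share the control libraries. All 3 paired calls held when any 1 of the 20 libraries was left out. Within libraries 1 to 3 the paired log2 fold change in shKdm6b was 1.35, and within libraries 4 and 5 it was 0.74 (adjusted p = 0.652, edgeR).

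Sema5b encodes a membrane-bound class 5 semaphorin with thrombospondin-type repeats, known in hippocampal neurons of rodents to reduce synapse number. It lies on chromosome 16 at 35541145 to 35664732 (plus strand). Active rescue libraries 1 to 5 had 42.4, 31.0, 18.5, 29.9 and 20.4 CPM. Dead rescue libraries had 29.3, 30.7, 15.8, 28 and 17.5 CPM. The shKdm6b libraries had 40.9, 33.5, 19.7, 21 and 23.6 CPM, against 16.0, 17.0, 13.4, 16.9 and 12.7 CPM in controls. Controls were tightly grouped and low, and the shKdm6b and active rescue values lay wholly above them, while dead rescue 3 fell inside the control range. Sema5b was 1.77-fold higher in shKdm6b (log2 0.82 ± 0.14, SE; adjusted p = 0.0023 paired and 0.506 without pairing, edgeR). The active rescue was 1.80-fold above control (log2 0.85 ± 0.14, adjusted p = 0.00422 paired and 0.651 without, edgeR), and the dead rescue 1.54-fold (log2 0.63 ± 0.14, adjusted p = 0.0347 paired and 1 without, edgeR). The shKdm6b and active rescue calls held without any 1 library. The dead rescue call was lost without active rescue 2, control 1, 2, 4 or 5, or dead rescue 2, 3, 4 or 5, with adjusted p up to 0.138 in edgeR.

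Epha5 encodes a receptor for ephrin-A ligands, known in mice for topographic mapping of axons. It spans 84054761 to 84417382 on chromosome 5 (minus strand). Active rescue libraries 1 to 5 had 7.61, 8.96, 6.04, 9.13 and 14.2 CPM. Dead rescue libraries had 14.9, 11.3, 9.03, 4.81 and 17.1 CPM. The shKdm6b libraries had 9.25, 13.6, 10.8, 4.51 and 6.66 CPM, against 24.4, 31.1, 19.6, 6.91 and 24.7 CPM in controls. All 5 shKdm6b libraries were below the control of their number, and control 4 was the sole control within the range of the other groups. Epha5 in shKdm6b was at 44.1% of control (log2 -1.18 ± 0.28, SE; adjusted p = 0.0251 paired and 0.56 without pairing, edgeR). It was at 47.4% in the active rescue (adjusted p = 0.0682 paired, edgeR) and at 54.4% in the dead rescue (adjusted p = 0.176 paired, edgeR), neither of which passed. Without active rescue 4 both rescues passed (adjusted p = 0.0035 active and 0.0409 dead, edgeR), and the active rescue also passed without control 4 (adjusted p = 0.0311, edgeR). The shKdm6b call was lost without control 1, 2, 3 or 5 or shKdm6b 1 or 5, with adjusted p up to 0.0913 in edgeR and a log2 fold change of -1.37 to -0.99 over all 20 omissions.

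Plxna4 encodes plexin-A4, a signalling receptor for class 3 semaphorins, with neuropilins, and for class 6 semaphorins. It spans 32144268 to 32588192 on chromosome 6 (minus strand). Active rescue libraries 1 to 5 had 19.2, 24.6, 13.2, 17.9 and 10.1 CPM. Dead rescue libraries had 23.0, 16.6, 10.6, 10.5 and 9.69 CPM. The shKdm6b libraries had 21.7, 22.3, 10.9, 7.91 and 8.54 CPM, against 32.1, 37.0, 17.3, 11.1 and 15.3 CPM in controls. The groups overlapped because libraries 1 and 2 were generally higher than the others in each group, but within each number shKdm6b was below control. Plxna4 in shKdm6b was at 63.0% of control (log2 -0.67 ± 0.17, SE; adjusted p = 0.0377 paired and 1 without pairing, edgeR). The active rescue was at 80.1% (adjusted p = 0.468 paired, edgeR) and the dead rescue at 64.6% (adjusted p = 0.104 paired, edgeR). Without active rescue 4 both passed (adjusted p = 0.0391 active and 0.0147 dead, edgeR), and the dead rescue also passed without control 4 (adjusted p = 0.0344, edgeR). The shKdm6b call was lost in 12 of 20 omissions (active rescue 2, control 1, 2, 3 or 5, dead rescue 3 or 5, and any shKdm6b library), with adjusted p up to 0.131 in edgeR. An antisense gene, Plxna4os1, overlaps Plxna4, and the labels do not say whether counting used strand. It had a median of 0.383 CPM and did not pass (log2 0.15 ± 0.53, SE; adjusted p = 0.954 paired, edgeR).

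Slit3 encodes a secreted ligand of Robo receptors and lies on chromosome 11 at 35121224 to 35708507 (plus strand), with a microRNA gene, Mir218-2, inside it. Active rescue libraries 1 to 5 had 54.1, 54.4, 84.6, 17.5 and 89.8 CPM. Dead rescue libraries had 60.0, 47.9, 72.5, 9.75 and 78.9 CPM. The shKdm6b libraries had 43.3, 53.7, 65.6, 8.51 and 74.1 CPM, against 58.0, 67.8, 85.4, 15.2 and 98.3 CPM in controls. Levels followed the replicate number, with libraries 4 lowest and 3 and 5 highest in every group, and the groups overlapped throughout. Within each number shKdm6b lay below control, at 72.7% on average (log2 -0.46 ± 0.12, SE; adjusted p = 0.0359 paired and 1 without pairing, edgeR). The active rescue was at 95.5% (adjusted p = 0.899 paired, edgeR) and the dead rescue at 80.6% (adjusted p = 0.299 paired, edgeR). The shKdm6b call was lost in 11 of 20 omissions (any control, dead rescue 3 or 5, shKdm6b 1, 3, 4 or 5), with adjusted p up to 0.11 in edgeR. The 10 meningeal and fibroblast markers were also highest in libraries 3 and 5. They were not lowest in libraries 4, at 6050 to 9150 CPM there against 5030 to 6150 CPM in libraries 2. They summed to 5460 to 24800 CPM in shKdm6b and 6150 to 32300 CPM in control, and 0 of the 10 were called. Their part in the Slit3 result was not tested.

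**Figure D2:**
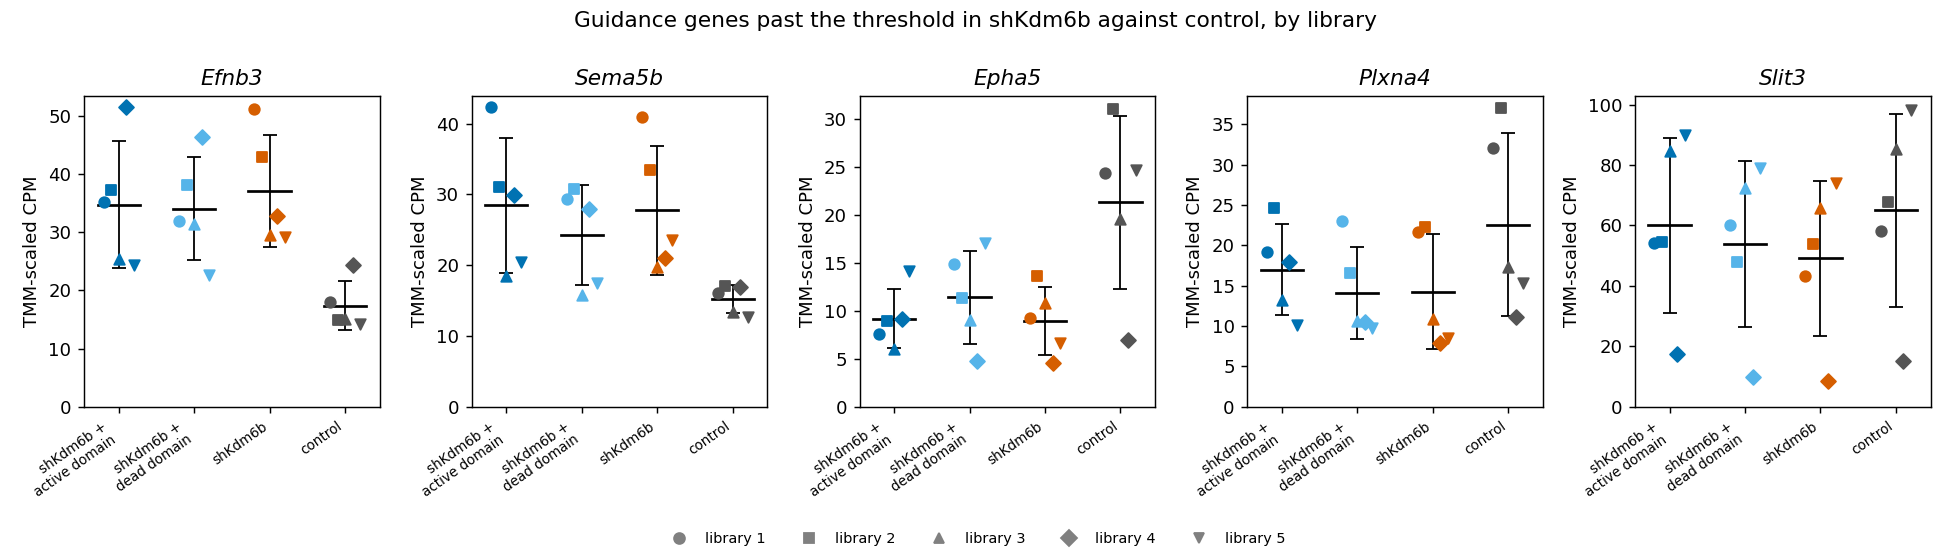
TMM-scaled CPM of Efnb3, Sema5b, Epha5, Plxna4 and Slit3 in each of the 20 libraries, by group; symbols mark the replicate number, horizontal bars are group means and whiskers are SD (n = 5). Efnb3 and Sema5b lie above the control of their number in every library with the shRNA, though dead rescue values overlap the control range. Epha5 lies below the control of its number in every library with the shRNA except active rescue 4. Slit3 is set apart by number, with libraries 4 at 8.51 to 17.5 CPM.

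Around these 5 genes, most of each family passed no test in shKdm6b against control (paired fit, edgeR). None of the 5 ephrin-A ligands was called. Efna5, an ephrin-A ligand known as a repellent in axon mapping, had 11 to 22.8 CPM in shKdm6b and 10.6 to 30.6 CPM in control (log2 -0.25 ± 0.13). Efna2 had 13 to 17.1 CPM in shKdm6b and 13.2 to 15.8 CPM in control, the most even profile among the ephrins named here. The other ephrin-B ligands differed from Efnb3 in their size of change: Efnb2 had a log2 fold change of -0.06 ± 0.11 and Efnb1 of -0.16 ± 0.14. Whether Efnb3 differed from them beyond error was not tested.

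Among Eph receptors, 1 of 8 tested EphA genes was called, which was Epha5, and 0 of 5 EphB genes. Epha7, a further ephrin-A receptor, had 35.9, 46.7, 57.9, 19 and 53.4 CPM in shKdm6b libraries, against 46.1, 59.8, 73.1, 29.6 and 73.3 CPM in controls. It was lower within every number but missed the threshold (log2 -0.42 ± 0.12, adjusted p = 0.0557, edgeR). Epha4, which binds ephrins of both classes and is a receptor of ephrin-B3, had a log2 fold change of 0.22 ± 0.17 (adjusted p = 0.628, edgeR). Ephb1 and Ephb2 bind ephrin-B ligands and are known at excitatory synapses. Ephb1 had 23.7 to 88.5 CPM in shKdm6b and 42.4 to 99.5 CPM in control (log2 -0.35 ± 0.11, adjusted p = 0.095, edgeR). Ephb2 had 41.6 to 134 CPM in shKdm6b and 50.0 to 130 CPM in control (log2 0.03 ± 0.10). Ephb1 and Epha7 therefore stood near the threshold with lower values, and Ephb2 at no difference larger than its error.

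None of the 7 class 3 semaphorins passed. Sema3a, the classical collapsing factor for axon tips, had 38.0 to 120 CPM in shKdm6b and 42.4 to 143 CPM in control (log2 0.01 ± 0.13), and Sema3c had a log2 fold change of 0.09 ± 0.15. Sema3d, a further secreted ligand, was higher in all 5 pairs, at 13.3 to 43.9 CPM in shKdm6b and 9.86 to 41.6 CPM in control, without passing (log2 0.62 ± 0.23, adjusted p = 0.18, edgeR). It is named, as are Plxnc1 and Plxna2 below, after its values were seen. Of 13 membrane-bound semaphorins, Sema5b alone passed. Sema4c had 123, 122, 73.8, 67.9 and 115 CPM in shKdm6b, against 70.2, 89.3, 64.7, 64.1 and 80.0 CPM in control. All 5 pairs were higher with the shRNA, yet the change did not pass (log2 0.42 ± 0.13, adjusted p = 0.0841, edgeR). Sema6d, a class 6 semaphorin that binds plexin-A1, had a log2 fold change of -0.01 ± 0.19.

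Of 9 plexins 1 was called, Plxna4. The abundant receptors Plxnb2 (518 to 680 CPM in shKdm6b, 475 to 627 CPM in control) and Plxna1 (87.1 to 505 CPM in shKdm6b, 142 to 543 CPM in control) had log2 fold changes of 0.13 ± 0.08 and -0.21 ± 0.16. Plxnc1, the receptor of Sema7a, was higher in all 5 pairs (log2 0.54 ± 0.21, adjusted p = 0.207, edgeR), and Plxna2, a relative of Plxna4, was lower in all 5 (log2 -0.47 ± 0.15, adjusted p = 0.112, edgeR), and neither passed. The same direction in all 5 pairs was not particular to the genes for which it is given. Epha4, Plxnb2, Sema3b, Sema6a and Sema6c were also higher in all 5. Epha1, Epha10, Ephb1, Ephb4, Robo1, Sema4d, Sema4f and Sema5a were also lower in all 5. With the genes above, these lists cover every tested member with this trait. The share of all genes with this trait was not counted. The neuropilins Nrp1 and Nrp2 had log2 fold changes of 0.02 ± 0.09 and -0.06 ± 0.13, both within their errors. Among Slits and Robos, Slit2 had a log2 fold change of -0.20 ± 0.16 and the receptors Robo1 and Robo2 of -0.25 ± 0.18 and -0.08 ± 0.17. The members not named had paired log2 fold changes that also stayed within -1.18 to 1.11, the range set by Epha5 and Efnb3.

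**Figure D3:**
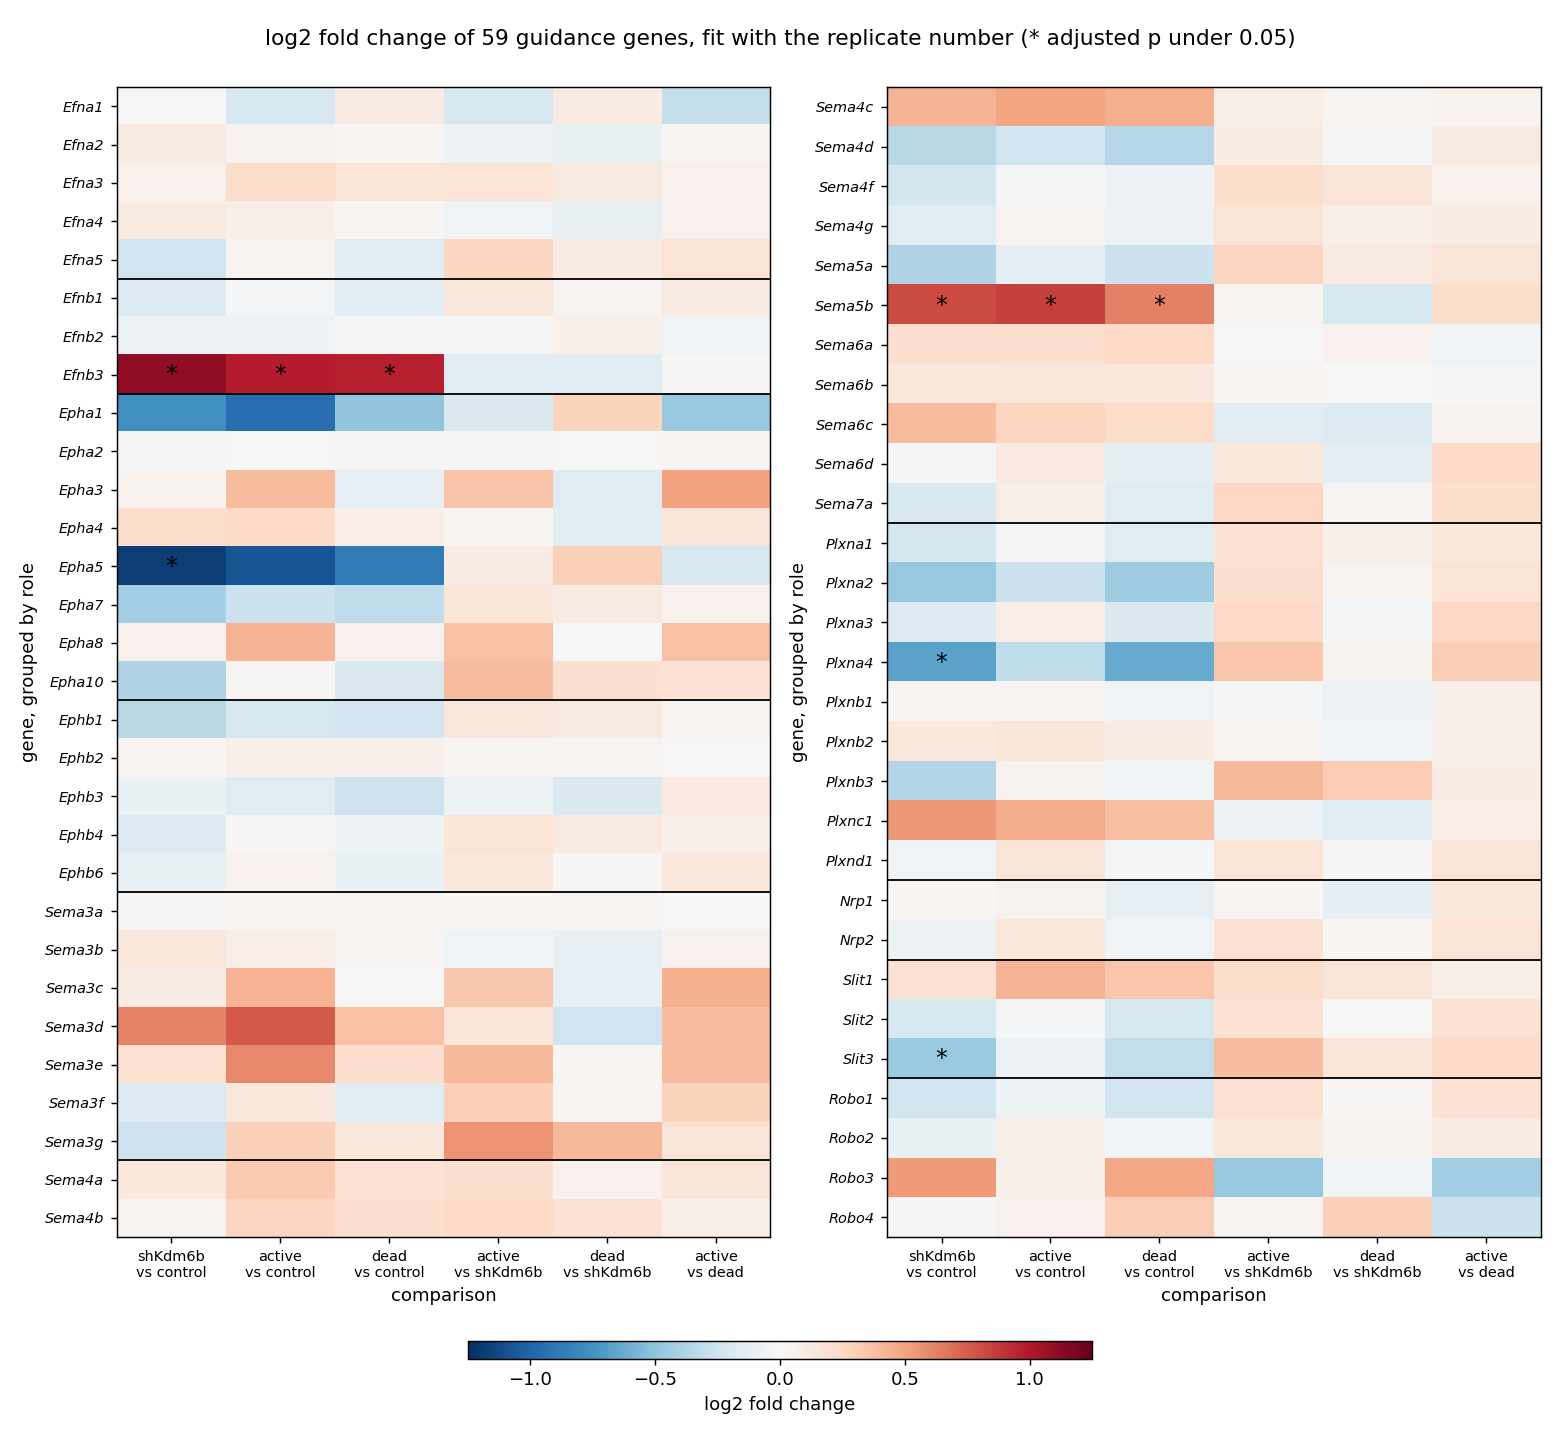
Paired log2 fold changes of the 59 tested guidance genes (rows, by role) in the 6 comparisons (columns); red is higher in the first-named group, blue lower, and asterisks mark an adjusted p under 0.05 in edgeR. Asterisks stand on 5 genes in shKdm6b against control and on Efnb3 and Sema5b in each rescue against control, and on none between rescues or against shKdm6b.

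The number of called members turned on a few libraries. Leaving out the 4 libraries numbered 4, which stood apart in their markers, raised the paired count in shKdm6b against control to 10 of 59 (16.9%), where 6.43% of all genes were called: the 5 above with Epha7, Plxna2, Sema4c, Sema5a and Sema6c, of which the last 5 were chosen after their values were seen. Without active rescue 4 alone the count was 8. It was 2 without control 1, 2, 3 or 5 or without shKdm6b 1 or 5, and 3 without shKdm6b 3 or dead rescue 3 or 5. Libraries 1 to 3 alone gave 5 calls (Efnb3, Epha5, Plxna4, Sema4c and Sema5b), and libraries 4 and 5 alone gave 0. In libraries 1 to 3 alone 2.89% of all genes were called, and over the single omissions 2.36% to 5.97%.

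Against shKdm6b, no guidance gene passed the threshold with either form of the KDM6B domain. Without pairing, 0 members had an unadjusted p under 0.05 in edgeR in any of the 3 comparisons that follow, and the counts of unadjusted p below are from the paired fit. In active rescue against shKdm6b 0 of 59 members were called, where 0.00654% of all genes were in the paired fit and 0% without pairing, and 8 members (13.6%, against 3.78% of all genes) had an unadjusted p under 0.05 in edgeR. In dead rescue against shKdm6b 0 were called, where 0% of all genes were called with or without pairing, and 0 members (against 1.4% of all genes) had an unadjusted p under 0.05 in edgeR. Between the active and dead rescue 0 were called, where 0.00654% of all genes were in the paired fit and 0% without pairing, and 5 members (8.47%, against 2.72% of all genes) had an unadjusted p under 0.05 in edgeR. DESeq2 called 0 members in each of these comparisons as well, with and without pairing. Efnb3 changed by -0.13 ± 0.15 in the active and -0.14 ± 0.15 in the dead rescue against shKdm6b (log2, SE), and Sema5b by 0.02 ± 0.13 and -0.20 ± 0.14. For the genes that were lower after knockdown, the active rescue gave 0.10 ± 0.29 for Epha5, 0.35 ± 0.17 for Plxna4 and 0.39 ± 0.12 for Slit3, and the dead rescue gave 0.30 ± 0.29, 0.04 ± 0.17 and 0.15 ± 0.12 in the same order. These genes were chosen for their difference between the same shKdm6b libraries and control. A value toward control in a rescue can therefore follow from that choice alone. Slit3 was higher in the active rescue than in shKdm6b in all 5 numbered pairs and had the lowest p of the members in that comparison, 0.00423 before adjustment and 0.734 after it (edgeR). Active minus dead for these genes was 0.01 ± 0.15 for Efnb3, 0.22 ± 0.14 for Sema5b, -0.20 ± 0.29 for Epha5, 0.31 ± 0.17 for Plxna4 and 0.24 ± 0.12 for Slit3, and these errors leave room for differences of the size seen after knockdown in Plxna4 and Slit3. Without active rescue 4, Plxna4 came to 0.12 in active rescue against shKdm6b and 0.08 in active minus dead, and Slit3 to 0.27 and 0.12 in the same order.

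Against control, each rescue called Efnb3 and Sema5b, both higher. In active rescue against control this was 2 of 59 members (3.39%), against 1.96% of all genes called and 1.09% called higher. In dead rescue against control it was 2 of 59 (3.39%), against 1.18% of all genes called and 0.576% called higher. Without pairing 0 members were called in either, where 0% of all genes were, and DESeq2 without pairing also called 0. At an unadjusted p under 0.05 the edgeR fit without pairing had 4 members (6.78%) in each. Of all genes 2.53% had such a p in the active and 1.81% in the dead rescue (edgeR). In the paired edgeR fit the members with an unadjusted p under 0.05 numbered 13 (22.0%, against 13% of all genes) in the active and 12 (20.3%, against 10.7%) in the dead rescue. CPM values did not overlap the controls for 2 members in the active rescue (3.39%, against 0.667% of all genes), 0 in the dead rescue (0.51% of all genes) and 2 in shKdm6b (3.39%, against 0.857% of all genes), and both times the 2 were Efnb3 and Sema5b. Without libraries numbered 4, the paired calls were 8 members (13.6%) in the active rescue against control, where 4.57% of all genes were called, and 5 (8.47%) in the dead rescue, where 2.49% were. Single omissions gave 5 members in the active rescue without active rescue 4 or 5, and in the dead rescue 5 without active rescue 4 and 1 without active rescue 2, control 1, 2 or 5, or dead rescue 2, 3, 4 or 5. Over the single omissions 0.818% to 2.69% of all genes were called in the active and 0.432% to 2.26% in the dead rescue.

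Over the whole family both rescues leaned upward against shKdm6b in the paired fit, and neither did so without the libraries numbered 4. In the fit without pairing 45 of 59 members were positive in the active rescue against shKdm6b (median 0.10), and 7439 of 15284 genes. In the dead rescue against shKdm6b that fit had 31 of 59 members positive (median 0.01), and 6601 of 15284 genes. Of 59 members, 48 (81.4%) had a positive paired log2 fold change in active rescue against shKdm6b, with a median of 0.14, while 54.0% of all genes were positive, with a median of 0.01. Without the libraries numbered 4 the same counts were 27 of 59 (45.8%, median -0.01) for members and 50.6% for all genes. In dead rescue against shKdm6b 39 of 59 (66.1%, median 0.02) were positive, against 49.1% of all genes, and without libraries 4 it was 44.1% of members, against 50.7% of all genes. Between active and dead rescue 50 of 59 (84.7%, median 0.10) were positive, against 54.5% of all genes, and without libraries 4 it was 36 of 59 (61.0%, median 0.06), against 49.3%. The class 3 semaphorins had the highest median of any ligand family with more than 3 members, at 0.30 in active rescue against shKdm6b. Sema3c, for one, had 53.4, 62.5, 219, 71.3 and 104 CPM in the active rescue, against 40.1, 56.2, 161, 39.2 and 124 CPM in shKdm6b. It was higher in 4 of the 5 pairs (log2 0.34 ± 0.15, adjusted p = 1, edgeR). In library 4 the summed markers also differed, in both directions. Granule neuron markers had 2490 CPM in the active rescue and 1790 CPM in shKdm6b, and meningeal and fibroblast markers 9150 CPM and 6050 CPM in the same order. Endothelial (159 and 92 CPM) and GABAergic and Purkinje neuron markers (278 and 208 CPM) were also higher. Astrocyte (13200 and 15900 CPM), microglial (334 and 570 CPM) and oligodendrocyte markers (450 and 459 CPM) were lower. Dead rescue 4 had a granule neuron sum of 2860 CPM. The part of these markers in the lean was not tested.

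Levels of many guidance genes followed the replicate number, as did levels of many other genes. In 11 members (18.6%) all 4 libraries numbered 4 lay below the other 16, as did 13.6% of all genes. They include the receptors Plxna1, Plxna2, Plxnd1, Epha7, Ephb1 and Ephb2 and the ligands Slit3, Sema3a, Sema4d, Sema4g and Sema5a, and the granule neuron markers were likewise lowest in libraries 4. Slit3 had 8.51 to 17.5 CPM in libraries 4 and 43.3 to 98.3 CPM in the others. Efna1 and Efna3 were the reverse, with all libraries 4 above the rest, which held for 3.39% of members and 8.19% of all genes. Libraries numbered 3 and 5, a grouping made after the values were seen, all lay above those numbered 1 and 2 in 15 members (25.4%), against 10.1% of all genes. Among them were Slit2 and Robo1, the class 3 ligand Sema3c with its receptor Nrp1, the ephrins Efna4, Efna5, Efnb1 and Efnb2, and Epha1, Epha2, Epha4, Ephb4, Ephb6, Plxna3 and Plxnb2. Slit2 illustrates this with 32.3 to 50.4 CPM in libraries 1 and 2 of all groups and 94.1 to 170 CPM in libraries 3 and 5. The summed meningeal and fibroblast markers ran the same way, at 14500 to 17800 CPM in libraries 3 and 24800 to 32300 CPM in libraries 5, against 6760 to 8070 CPM in libraries 1 and 5030 to 6150 CPM in libraries 2. The endothelial marker sum did so too, at 112 to 192 CPM in libraries 3 and 5 against 62 to 82.2 CPM in libraries 1 and 2. Much of that sum was Cdh5, while Cldn5 and Pecam1 had medians of 0.119 and 0.995 CPM over all libraries. GABAergic and Purkinje neuron markers ran the other way, at 133 to 245 CPM against 289 to 398 CPM. The opposite order, with 3 and 5 all below, held for Epha8, Ephb2, Sema4f and Sema6a (6.78% of members, 3.5% of all genes). The part of cell composition in these patterns was not tested.

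**Figure D4:**
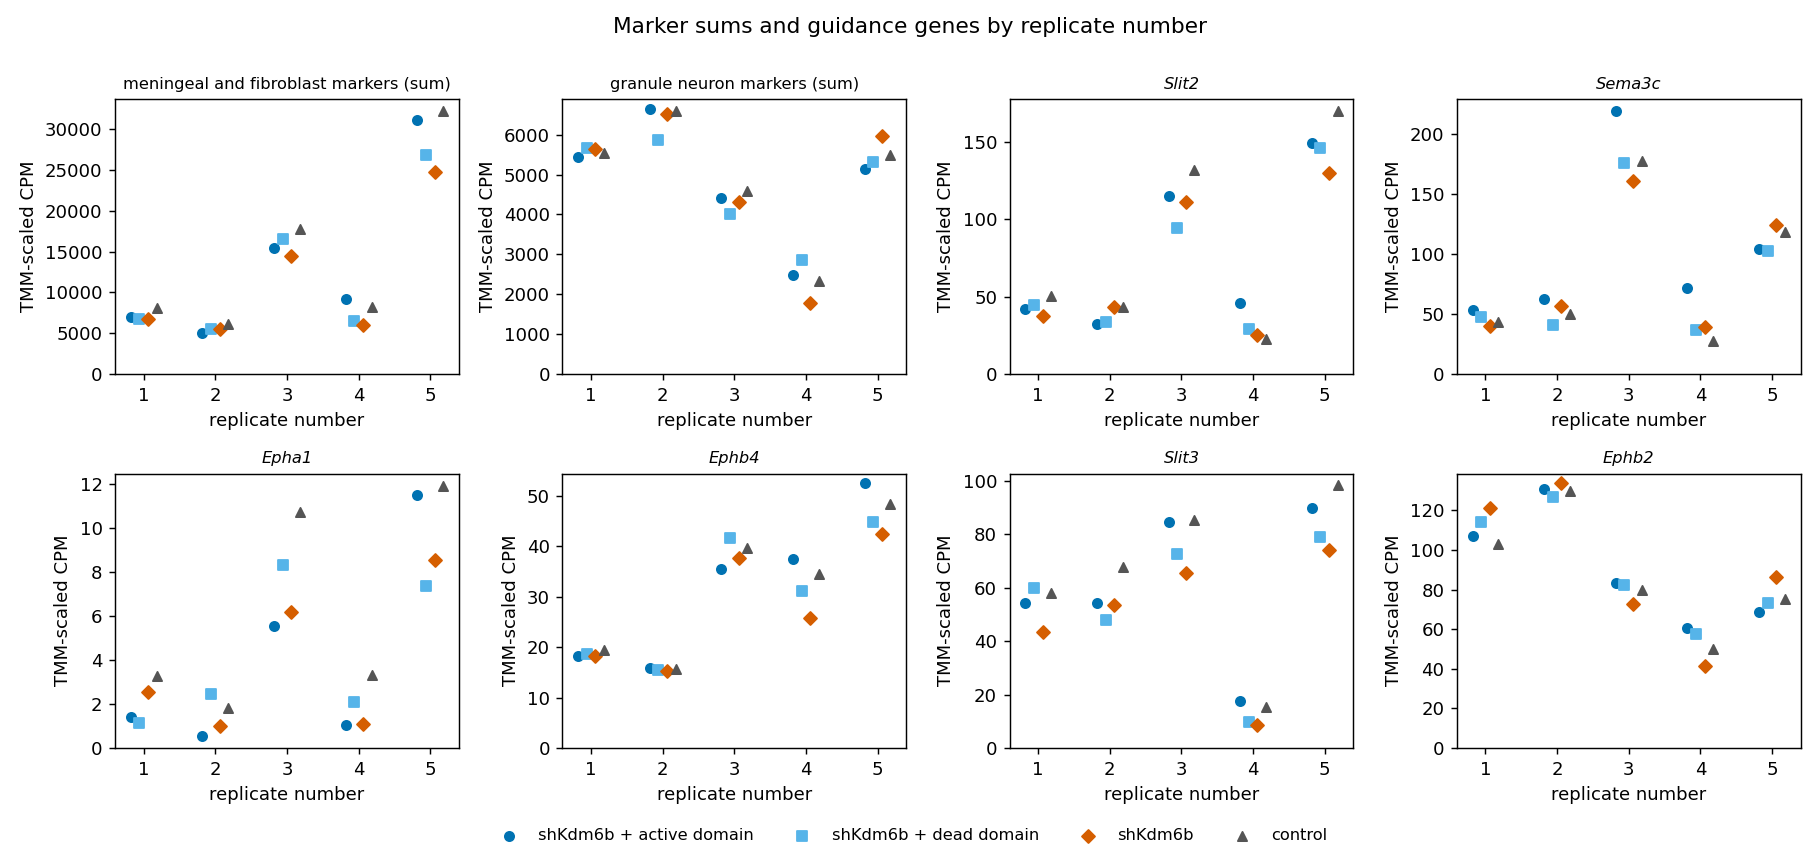
Summed meningeal and granule neuron markers and 6 guidance genes, in TMM-scaled CPM, against replicate number; symbols mark the 4 groups and each point is a library. Slit2, Sema3c, Epha1 and Ephb4 are high in numbers 3 and 5, where the meningeal marker sum is 14500 to 32300 CPM, Slit3 is low in number 4, and Ephb2 is highest in numbers 1 and 2.

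Downstream of the receptors, 3 lists of signalling partners were read in the paired shKdm6b against control comparison (edgeR). Among 28 partners of Eph receptors and ephrins, 1 was higher, 3 were lower and 24 did not pass (14.3% called, against 4.14% of all genes), with a median log2 fold change of 0.03. Tiam1, a Rac activator that EphB receptors recruit, had 72.5 ± 32.7 CPM in shKdm6b and 99.9 ± 43.4 CPM in control (SD, n = 5 each; log2 -0.50 ± 0.10, adjusted p = 0.00952, edgeR). Nck1, an adaptor that binds activated Eph receptors, had 33.9 ± 7.95 CPM in shKdm6b and 44.2 ± 7.95 CPM in control (log2 -0.40 ± 0.09, adjusted p = 0.012, edgeR). Rgs3, which links the ephrin-B tail to G protein signalling, had 20.6 ± 6.68 CPM in shKdm6b and 28.7 ± 7.79 CPM in control (adjusted p = 0.0404, edgeR), a call lost in 12 of 20 single omissions. The gene that was higher, Anks1b, encodes a postsynaptic adaptor protein and is named here after its value was seen (log2 0.65 ± 0.17, adjusted p = 0.0443, edgeR), and its call was lost in 14 omissions.

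Among 38 partners of plexins and neuropilins, 0 were higher, 2 were lower and 36 did not pass (5.26% called, against 4.14% of all genes), with a median log2 fold change of 0.04. The adhesion molecule gene Cntn2, a marker of young granule neurons whose product takes part in Sema3a responses, had 291 ± 146 CPM in shKdm6b and 387 ± 160 CPM in control (log2 -0.54 ± 0.13, adjusted p = 0.0251, edgeR), a call lost in 5 omissions. Rras2, of the R-Ras family on which plexins act, had 37.7 ± 12.5 CPM in shKdm6b and 50.2 ± 14.5 CPM in control (adjusted p = 0.0491, edgeR), a call lost in 17 omissions. Among 27 partners of Slits and Robos, 0 were higher, 2 were lower and 25 did not pass (7.41% called, against 4.14% of all genes), with a median of 0.01, the same as over all genes. Cap2, an actin-binding cyclase-associated protein, had 14.3 ± 4.51 CPM in shKdm6b and 31.6 ± 13.8 CPM in control (log2 -1.06 ± 0.22, adjusted p = 0.00952, edgeR). Pak1, a kinase driven by Rac and Cdc42, had 223 ± 89.1 CPM in shKdm6b and 324 ± 79.9 CPM in control (log2 -0.62 ± 0.13, adjusted p = 0.0102, edgeR). The calls of Tiam1, Nck1, Cap2 and Pak1 held in all 20 omissions, with adjusted p up to 0.0429. Without pairing, 0 of the 93 partners were called in shKdm6b against control, and 3 had an unadjusted p under 0.05, against 3.12% of all genes (edgeR). DESeq2 called 0 without pairing and 12 with it. Against shKdm6b the paired edgeR fit called 0 partners in the active rescue (9 of 93 at an unadjusted p under 0.05, against 3.78% of all genes). It called 0 in the dead rescue (2 of 93 at that p, against 1.4% of all genes). Between the 2 domains it called 0 (2 of 93 at that p, against 2.72% of all genes). DESeq2 with pairing called 0 in these as well. In the dead rescue against control edgeR called 0 (15 of 93 at that p, against 10.7% of all genes), where DESeq2 with pairing called 3. In the active rescue against control the paired edgeR fit called 1 of 93 partners, against 1.96% of all genes, and DESeq2 with pairing 7. The heparan sulphate proteoglycan gene Sdc3 was higher in the active rescue, with 447 ± 89.6 CPM against 337 ± 62.4 CPM in control (log2 0.40 ± 0.09, adjusted p = 0.037, edgeR). The part of the cell type markers that differed in the partners' calls was not tested.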

How the data were processed

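Total RNA of cultured granule neurons gave 20 sequenced libraries, per the labels' protocols, for which the authors deposited 1 table of estimated counts per gene symbol, unscaled and not adjusted for length. The table's name gives salmon as the counting tool, and mm10 is the genome build in the submitters' processing notes. Salmon's version and the annotation were not given in the sources used here. Each column was matched to a library by name, with 0 unmatched columns. Values were rounded to integers before testing. Members and gene lists were chosen with earlier results of these data known.

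The low-count filter was filterByExpr (edgeR 4.0.16, R 4.3.3), which removed 9127 of 24411 genes and left 15284 to test. All 20 libraries entered 1 fit with TMM factors, and the 6 group contrasts were tested two-sided with the robust quasi-likelihood test, with Benjamini-Hochberg adjustment over all genes at 0.05. An SE is the log2 fold change over the square root of F. The planned fit had no block. The shared numbers were then checked, since the labels leave their meaning unsaid. Deviations from the group mean correlated in each of 30 pairs with the same number (r across genes 0.361 to 0.881, limit 0.1), and 20 of 20 libraries were most like one of their own number. The fit with the number as a replicate block is therefore given as the paired fit. It lowered the biological coefficient of variation to 0.179, against 0.392 without the block, with 12 residual degrees of freedom, against 16. Squared count differences between libraries of a group were at least 27.9 times those of sampling alone (chi-square over its degrees of freedom). No library was therefore treated as a copy of another. Both fits were tested on simulated data. CPM use TMM-scaled library sizes, and exon lengths and gene positions come from a GENCODE annotation of GRCm38.

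Named genes are the members past the threshold in any comparison in either fit, the 2 members of each role with the highest mean CPM, 24 in all, and up to 3 called genes of each partner list. Alternatives were DESeq2 1.42.0, RLE factors, no filter, and leaving out libraries or numbers, each also with the block. Efnb3 and Plxna4 have no promoter printed.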

Additional observations from a re-analysis of the deposited data

Results flagged for a closer look

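Plxna1, a plexin-A receptor, had 1 library far from the others of its group. Dead rescue 4 had 151 CPM, while the other 4 dead rescue libraries had 356 to 437 CPM, a gap of 0.717 of the whole range, where 0.71 is the critical value for 5 libraries. Of 100 gene and group combinations examined this was the 1 past that value, and chance passes about 1 in 20. Plxna1 was also lowest in the library numbered 4 of each other group, at 225 CPM in the active rescue, 87.1 CPM in shKdm6b and 142 CPM in control.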

How the results depend on the processing

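Counts of called members against control were 0 without pairing, and these alternatives moved them. In shKdm6b against control the replicate block gave 5, RLE factors or no filter with the block 5 each, DESeq2 1 without and 9 with the block, libraries 4 left out 1 without and 10 with the block, libraries 5 left out 2 with it, and libraries 1 to 3 only 5 with it. In the active rescue against control the block gave 2, also with RLE factors, with no filter or without libraries 5, while DESeq2 with the block gave 7, leaving out libraries 4 gave 8 and libraries 1 to 3 only gave 7. In the dead rescue against control the block gave 2, also with RLE factors or no filter, DESeq2 with the block 4, leaving out libraries 4 gave 5, leaving out libraries 5 gave 1 and libraries 1 to 3 only gave 3. With the block, the share of all genes called moved as well (edgeR). In shKdm6b against control it was 4.14%, then 6.43% without libraries 4, 1.18% without libraries 5 and 2.89% in libraries 1 to 3. In the active rescue against control it was 1.96%, 4.57%, 0.661% and 2.98% in the same order. In the dead rescue against control it was 1.18%, 2.49%, 0.314% and 0.962%. For RLE factors, no filter, DESeq2 and libraries 4 left out without the block that share is not given. Leaving out 1 library at a time gave 0 in every comparison without pairing. With the block it gave 2 to 8 in shKdm6b against control, 2 to 5 in the active and 1 to 5 in the dead rescue against control, and 0 in the other 3 comparisons. Kdm6b in shKdm6b against control changed by -0.79 without pairing (-0.97 to -0.63 over omissions), and by -0.88 with the replicate block (-1.02 to -0.65), -0.90 in DESeq2 with the block, -0.89 with RLE factors and the block, -0.88 with no filter and the block, and -0.58 in libraries 1 to 3 with the block. Those fits with the block passed the threshold that the fit without pairing missed. The block missed it without libraries 4 (-0.84, adjusted p = 0.0565, edgeR), without libraries 5 (-0.74, adjusted p = 0.0832) and in libraries 4 and 5 only (-1.21, adjusted p = 0.22). The cause was not tested. The fit without pairing called no named gene, so no such call could be lost in it. Calls of the paired fit were followed for members in every comparison and for partners in shKdm6b against control, 17 in all. Leaving out 1 library kept 254 of 340 and lost 86. The other settings with the block kept 84 of 119 and lost 35, with 0 changes of sign. The Sdc3 call in the active rescue against control was not followed in this way. Depth limits the lowest genes, such as Robo3, Slit1 and Robo4, most.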

Other observations

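Efnb3 and Kdm6b are neighbours on chromosome 11, on the same strand, with 140416 bases between them. Within 200000 bases on either side of Kdm6b, 13 genes were tested. The paired edgeR fit called 2 of them in shKdm6b against control, where 4.14% of all genes were called. The 2 were Efnb3, the gene for which the window was examined, which was higher, and Atp1b2, a sodium pump subunit gene, which was lower. This closeness was noticed after the values were seen, and its part in the Efnb3 result was not tested.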
